A study of Mus musculus with 28 samples.

Results

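The AP-1 family described here comprised 8 genes, Fos, Fosb, Fosl1, Fosl2, Jun, Junb, Jund and Batf3, out of 54429 gene identifiers in the count table. They were picked by symbol, and the choice was prompted by the large oxygen difference of Fosl1 in osteoblast cultures. For that reason no test is given for the oxygen comparison within osteoblast cultures, for the oxygen dependence of the osteoblast change, or for Fosl1 in any comparison that uses osteoblast libraries. RNA sequencing had been carried out on 28 libraries of O9-1 cells, a mouse line of cranial neural crest cells, the embryonic population that forms much of the facial skeleton. The design compared cells that proliferated or were driven towards cartilage, bone or smooth muscle, each at 21% and at 0.5% O2.

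All cultures were of the same line, so line and genotype were shared by the 8 groups, and each culture type had 4 libraries at 21% O2 and 3 at 0.5% O2. Proliferating cells were kept in conditioned DMEM with 15% FCS (fetal calf serum), 25 ng/ml bFGF and 5 ng/ml LIF, a growth factor and a cytokine that keep the line undifferentiated. Chondrocyte cultures had 3 days of osteogenic medium and then 7 days as micromasses on matrigel in alpha-MEM with 5% FCS, ITS, 0.1 µM dexamethasone, 10 ng/ml TGF-beta3 and 50 ng/ml BMP-2. Osteoblast cultures had 10 days of alpha-MEM with 10% FCS, 10 mM beta-glycerophosphate, 0.1 µM dexamethasone and 100 ng/ml BMP-2. Smooth muscle cultures had 3 days of DMEM with 10% FCS. Medium, serum, culture time and cell density therefore differ between culture types together with cell fate and cannot be told apart from it. The oxygen comparisons are within 1 medium. The labels number the replicates but do not say whether they came from separate cultures, so p-values measure the spread between these libraries, which may be technical. In bulk RNA, fewer cells that express a gene and less RNA per cell cannot be told apart.

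AP-1 is a dimeric transcription factor made of basic leucine zipper (bZIP) proteins. Jun proteins can pair with one another, whereas Fos proteins bind DNA only in a pair with a Jun protein, and the pair recognises a short palindrome found in the control regions of growth, matrix and inflammatory genes. Fos, Fosb, Jun and Junb are classic immediate early genes, transcribed within minutes of a growth factor or stress signal, while Fosl1 and Fosl2 usually follow later. In the skeleton, Fos, Fosl1 and Fosl2 are known as regulators of bone-forming and bone-resorbing cells.

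Library totals lay between 19869271 and 64693346 counts. The 3 smooth muscle libraries at 0.5% O2 stood apart. Mitochondrial rRNA took 11.6% to 13.3% of their counts, against 0.0252% to 0.0889% in the other 25 libraries, and their mean TMM scaling factor was 0.518, against group means of 0.914 to 1.28 elsewhere. Their summed level of 4 smooth muscle markers was 28.5 to 42.3 CPM (scaled counts per 1e+06), against 3324 to 3758 CPM at 21% O2, so the label smooth muscle is not borne out by its markers at 0.5% O2. The macrophage list summed to 33.6 to 37.4 CPM in them, nearly all Cd68 (35.0 CPM), with Ptprc at 0.09 CPM and Adgre1 at 0. Fits without mitochondrial genes, and fits scaled by library size alone in place of TMM, were run as alternatives. Otherwise the part of these differences in the results below was not tested. Osteoblast replicate 4 at 21% O2 also stood apart from its 3 companions for several members. Values without it are given below for comparisons of Fosl1, Jun, Junb and Batf3. In osteoblast cultures Runx2 averaged 63.5 ± 6.0 CPM (SD, n = 4) at 21% and 140.3 ± 13.6 CPM (n = 3) at 0.5% O2, and Col1a1 6567 ± 1809 and 9760.0 ± 1187 CPM. The other osteoblast markers at 21% O2 rested on replicate 4, which had 45.4 CPM of Sp7, 40.0 of Alpl, 3.20 of Ibsp and 0.45 of Bglap, whereas its 3 companions averaged 1.06, 1.84, 0.44 and 0.01 CPM. At 0.5% O2 these 4 genes averaged 96.7, 74.6, 69.6 and 0.37 CPM, so Bglap alone of them was above that mean in replicate 4. Replicate 4 also stood apart in chondrocyte markers, with 776 CPM of Col2a1, 370.3 of Acan and 194 of Sox9 against 39.1, 94.3 and 52.5 CPM on average in its companions, and the 0.5% O2 means were 71.0, 345 and 196 CPM. Smooth muscle markers summed to 3065 to 4684 CPM in osteoblast cultures at 21% O2, overlapping the smooth muscle cultures, and to 1715 to 2005 CPM at 0.5% O2. Most of that was Acta2, at 4164 CPM in replicate 4, 2916 CPM on average in its companions and 1695 CPM at 0.5% O2. Ibsp (1174 CPM), Sp7 (169.6) and Alpl (265) averaged higher still in chondrocyte cultures at 21% O2. At 0.5% O2 the fat cell marker list summed to 20.02 to 23.1 CPM in osteoblast cultures, against 2.52 to 6.09 CPM at 21% O2, almost all of it Fabp4, with Adipoq at 0 in both. In chondrocyte cultures 5 of 6 chondrocyte markers averaged lower at 0.5% O2, from 3513 to 274 CPM for Col2a1, 1965 to 622 for Acan, 619 to 69.7 for Hapln1, 51.8 to 3.67 for Comp and 0.90 to 0.29 for Matn3, with Sox9 at 159 and 161. Of 8 neural crest markers, 7 averaged at least 1 CPM in every group, Prrx1 from 385 to 2510 CPM and Twist1 from 56.8 to 434 CPM, and Sox10 had 1 count in smooth muscle cultures at 21% O2 and 0 in the other 7 groups. The part of the marker differences in the oxygen results was not tested.

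Per kilobase of exon, which allows a rough comparison of genes, the family was made up differently in each culture. The length was that of all annotated exons of a gene together, not of the transcripts expressed. Shares and close ranks depend on that choice. Proliferating cells at 21% O2 carried 387 CPM per kilobase of family transcripts, shared mainly by Jun (118.6), Fosl1 (115.4) and Jund (103.9). Jund was the most abundant member in chondrocyte (102.0 CPM per kilobase), osteoblast (49.1) and smooth muscle cultures (61.8) at 21% O2. The Fos branch (Fos, Fosb, Fosl1 and Fosl2) held 37.6% of the family level in proliferating, 16.1% in chondrocyte, 25.5% in osteoblast and 22.2% in smooth muscle cultures at 21% O2. At 0.5% O2 these shares were 40.7%, 18.4%, 51.7% and 28.1%. The group total was 117 CPM per kilobase in osteoblast cultures at 21% O2 and 293 at 0.5% O2, and 119 and 281 in smooth muscle cultures. Scaled by library size alone the totals were 128 and 288 in osteoblast cultures but 152 and 146 in smooth muscle cultures, so the higher smooth muscle total at 0.5% O2 was seen with TMM and not without it. In osteoblast cultures at 0.5% O2, Fosl2 (63.1 CPM per kilobase), Jun (62.5) and Fos (54.2) were the largest members. In smooth muscle cultures at 0.5% O2, Junb was the largest (90.2).

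**Figure D1:**
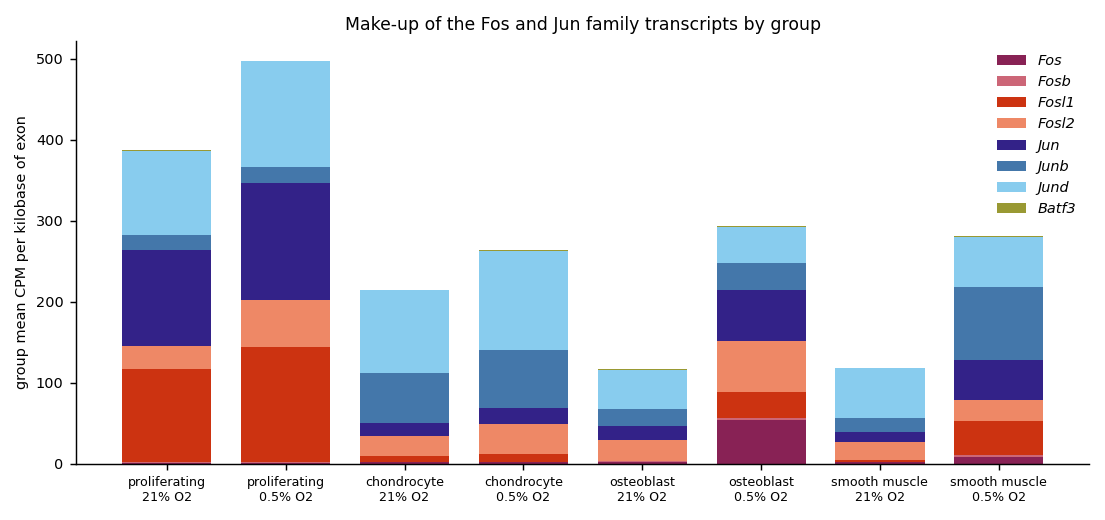
Stacked bars give the group mean level of each member in CPM per kilobase of exon, for 8 groups (4 libraries each at 21% O2, 3 at 0.5% O2). Jun, Fosl1 and Jund fill the proliferating bars, Fos is a visible part of the bar only in osteoblast (54.2) and smooth muscle (8.68) cultures at 0.5% O2, and Batf3 is too low to see.

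Promoter sequence was examined because Fos, Jun and Junb were all called higher at 0.5% O2 in smooth muscle cultures and are held to be regulated through short start-proximal elements. RefSeq windows of 250 bases before the transcription start (GRCm38.p6) were at hand for 7 of the 8 members. Capitals mark matches, on either strand, to TGACGT and TGACNTCA (cyclic AMP and AP-1 type elements), TGANTCA (the AP-1 palindrome), the CArG box bound by serum response factor, TATAAA and CCAAT. The ACGTG form of the core bound by hypoxia-inducible factors was searched as well, and the GCGTG form was not. The Fos window is chr12:85473640-85473889 (+ strand), the Jun window chr4:95052223-95052472 (- strand) and the Junb window chr8:84978749-84978998 (- strand).
Fos promoter: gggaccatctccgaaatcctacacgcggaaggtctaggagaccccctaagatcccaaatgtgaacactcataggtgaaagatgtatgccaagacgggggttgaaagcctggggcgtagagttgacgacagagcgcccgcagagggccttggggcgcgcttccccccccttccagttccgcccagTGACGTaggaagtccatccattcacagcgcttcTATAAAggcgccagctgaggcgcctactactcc
Jun promoter: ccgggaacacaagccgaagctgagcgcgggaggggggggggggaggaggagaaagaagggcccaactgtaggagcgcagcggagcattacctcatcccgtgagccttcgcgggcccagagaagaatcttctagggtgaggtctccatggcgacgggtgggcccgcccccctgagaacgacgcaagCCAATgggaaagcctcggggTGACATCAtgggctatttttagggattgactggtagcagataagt
Junb promoter: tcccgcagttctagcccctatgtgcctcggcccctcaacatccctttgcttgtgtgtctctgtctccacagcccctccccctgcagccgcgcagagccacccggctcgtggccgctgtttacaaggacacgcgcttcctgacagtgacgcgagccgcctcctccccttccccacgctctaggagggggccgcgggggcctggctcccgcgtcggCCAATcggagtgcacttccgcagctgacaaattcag
The Fos window held TGACGT at -66 and TATAAA at -33 from the start. The Jun window held CCAAT at -65 and the TGACNTCA match tgacatca at -45, and the Junb window held CCAAT at -36. Of 32851 promoter windows of the same length, 6.47% held TGACGT, 7.49% TGACNTCA, 12.4% TATAAA, 33.8% CCAAT, 6.75% TGANTCA and 1.47% a CArG box. The Fosb, Fosl2, Jund and Batf3 windows held none of these. ACGTG matched 2 times each in the Jund and Batf3 windows, the Batf3 pair being 1 palindrome read on both strands, and in none of the other 5, while 16.6% of all windows held it. These starts are RefSeq's. They equal the gene starts given with each member for Fos and Jun and lie 30 bases upstream for Junb, 6 bases downstream for Fosb, 671 downstream for Fosl2, 567 downstream for Batf3 and 1210 bases upstream for Jund. A match is a description of the letters and no evidence of binding. Elements further upstream than 250 bases, CArG boxes among them, lay outside these windows and were not searched.

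Fosl1 (ENSMUSG00000024912, GRCm38 chromosome 19, 5447547 to 5455946, + strand) encodes FRA-1, a Fos protein without the strong activation domain of FOS. It was highest in proliferating cells, where the 4 libraries at 21% O2 had 244, 249, 237 and 208 CPM and the 3 at 0.5% O2 had 297, 297 and 277 CPM. The groups did not overlap, and Fosl1 was 0.36 ± 0.06 (log2 fold change ± SE) higher at 0.5% O2 (edgeR adjusted p = 7.36e-05), a call that ended with all 8 groups in 1 fit (0.31, adjusted p = 0.181). In osteoblast cultures at 21% O2 Fosl1 was lowest of all groups, at 0.28, 0.39, 0.54 and 1.54 CPM (8 to 48 counts a library), and at 0.5% O2 it was at 56.3, 61.1 and 75.7 CPM. The fitted difference that prompted the choice of the family was 6.50 ± 0.42 on the log2 scale (90.4-fold), and 7.29 without osteoblast replicate 4 at 21% O2, the highest of the 4. It is given with no test.

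The oxygen difference that prompted the choice was that in osteoblast cultures, so Fosl1 was tested in smooth muscle cultures. Earlier results of these data were nonetheless known when members and tests were chosen. The 4 libraries at 21% O2 had 7.57, 5.00, 6.03 and 6.39 CPM and the 3 at 0.5% O2 had 89.3, 87.7 and 80.2 CPM. Every library at 0.5% O2 was above every library at 21% O2, by 3.84 ± 0.13 on the log2 scale (14.4-fold, edgeR adjusted p = 8.61e-13). With library size alone in place of TMM the difference was 2.48 on the log2 scale, the lowest of the alternatives run. In chondrocyte cultures Fosl1 was at 18.9, 11.6, 13.4 and 18.7 CPM at 21% O2 and at 22.8, 21.2 and 18.0 CPM at 0.5% O2. These groups overlapped, and the difference of 0.39 ± 0.18 did not pass the test (edgeR adjusted p = 0.143). With replicate number as a block in the fit it did (0.51, edgeR adjusted p = 0.0365). In the order of the 8 groups, only chondrocyte cultures at the 2 oxygen levels overlapped with each other. All other neighbours were separated.

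Fos (ENSMUSG00000021250, chromosome 12, 85473890 to 85477273, + strand), the founding immediate early member, was nearly silent in proliferating cells. Its libraries there had 0.46, 0.61, 0.53 and 0.56 CPM at 21% O2 and 0.55, 0.97 and 0.82 CPM at 0.5% O2, from 16 to 45 counts. The groups overlapped, and the difference of 0.58 ± 0.34 did not pass (edgeR adjusted p = 0.155). In osteoblast cultures Fos was at 6.74, 6.82, 5.87 and 4.65 CPM at 21% O2 and at 149.6, 98.9 and 134 CPM at 0.5% O2. The fitted difference was 4.41 ± 0.18 on the log2 scale (21.2-fold), given as a description. Osteoblast cultures at 0.5% O2 thus had the highest Fos level of the 8 groups, and all 3 libraries were above every other library.

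Fos in smooth muscle cultures was at 4.01, 3.55, 3.08 and 3.94 CPM at 21% O2 and at 32.4, 10.6 and 18.3 CPM at 0.5% O2. The 3 libraries at 0.5% O2 were spread widely, with replicate 1 highest, but all lay above the 4 at 21% O2. Fos rose by 2.56 ± 0.28 on the log2 scale (edgeR adjusted p = 8.42e-07), and by 1.20 with library size alone in place of TMM. In chondrocyte cultures Fos averaged 3.55 ± 1.01 CPM (SD, n = 4) at 21% O2 and 4.63 ± 2.66 CPM (SD, n = 3) at 0.5% O2. Replicate 1 at 0.5% O2 (7.67 CPM) was the highest of both groups, the difference of 0.38 ± 0.37 did not pass (edgeR adjusted p = 0.513), and without that replicate it was -0.19.

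Fosb (ENSMUSG00000003545, chromosome 7, 19302696 to 19310051, - strand), an immediate early gene close in sequence to Fos, was low throughout and had another order of groups. In proliferating cells it averaged 9.85 ± 1.65 CPM (SD, n = 4) at 21% and 9.51 ± 1.55 CPM (SD, n = 3) at 0.5% O2. Smooth muscle libraries had 2.27, 3.01, 2.87 and 4.08 CPM at 21% O2 and 11.0, 7.88 and 10.5 CPM at 0.5% O2. These groups were separate, and Fosb rose by 1.74 ± 0.24 on the log2 scale (edgeR adjusted p = 1.01e-05), a call that library size alone in place of TMM ended (0.38, adjusted p = 0.171). In osteoblast cultures it was at 3.49, 3.55, 2.64 and 2.85 CPM at 21% O2 and at 13.4, 11.6 and 24.2 CPM at 0.5% O2 (fitted difference 2.39 ± 0.26, description only). Chondrocyte libraries lay between 1.02 and 1.61 CPM at both oxygen levels and overlapped.

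Fosl2 (ENSMUSG00000029135, chromosome 5, 32135801 to 32157842, + strand), which encodes FRA-2, varied least across culture types within the Fos branch, with group means of 206 to 273 CPM at 21% O2. Its level was higher at 0.5% O2 in proliferating cells, at 584, 568 and 529 CPM against 296, 290.3, 291 and 215 CPM. The groups did not overlap, and the difference was 1.09 ± 0.10 on the log2 scale (edgeR adjusted p = 3.1e-06). In chondrocyte cultures Fosl2 was at 229, 241, 234 and 269.8 CPM at 21% O2 and at 377, 343 and 336 CPM at 0.5% O2. Again no library overlapped, and the rise was 0.52 ± 0.07 (edgeR adjusted p = 0.00048). In osteoblast cultures the libraries had 262, 269, 277 and 213 CPM at 21% O2 and 613, 624 and 595 CPM at 0.5% O2, a fitted difference of 1.26 ± 0.10 given as a description. For smooth muscle cultures Fosl2 was called higher by 0.39 ± 0.08 (edgeR adjusted p = 0.00029), and library size alone turned the direction (-0.98).

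**Figure D2:**
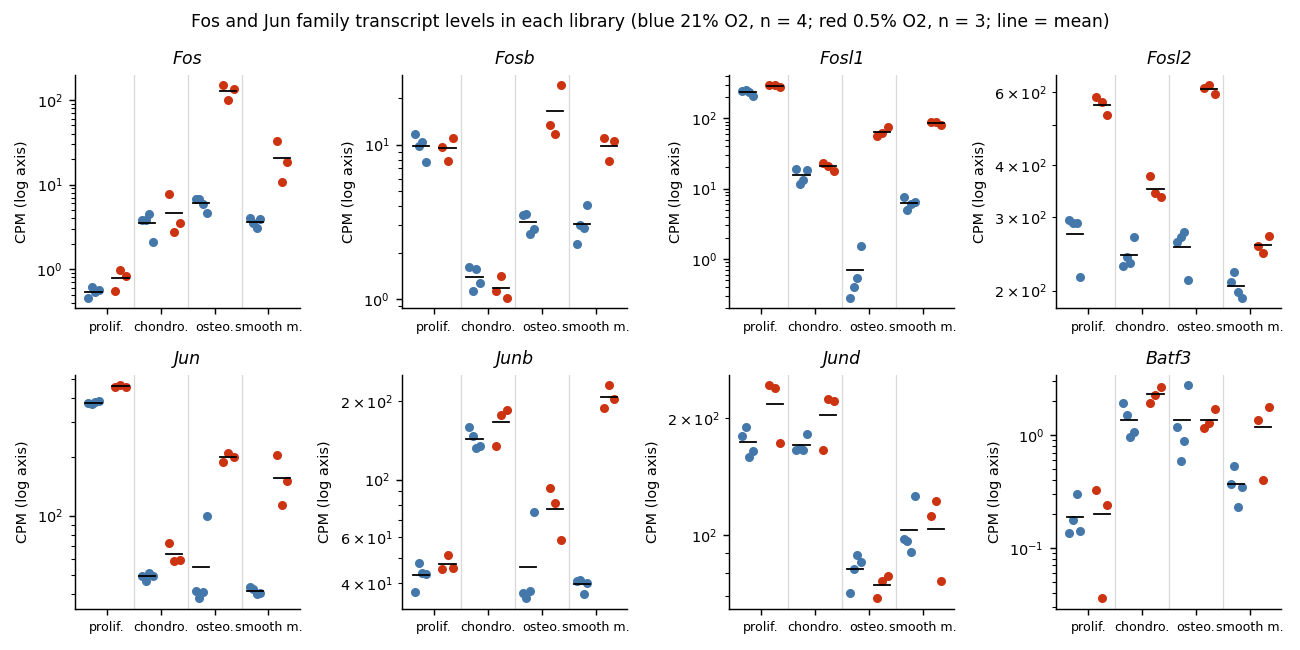
Each point is the level of 1 member in 1 library in CPM on a log axis, blue for 21% O2 (4 libraries a group), red for 0.5% O2 (3 libraries a group), with the group mean as a line. Fosl1 spans from 0.28 CPM in an osteoblast library at 21% O2 to 297 CPM in proliferating libraries at 0.5% O2, whereas Fosl2 libraries stay within 192 to 624 CPM.

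Jun (ENSMUSG00000052684, chromosome 4, 95049034 to 95052222, - strand), the main partner of the Fos proteins, was highest in proliferating cells, at 375, 374, 379 and 385 CPM at 21% O2 and 457, 463 and 453 CPM at 0.5% O2. The replicates were close and the groups separate, and Jun was 0.33 ± 0.04 higher on the log2 scale at 0.5% O2 (edgeR adjusted p = 1.33e-05), a call that ended with all 8 groups in 1 fit (0.28, adjusted p = 0.334). Jun in smooth muscle cultures was at 43.2, 42.3, 39.6 and 40.2 CPM at 21% O2 and at 204.5, 114 and 151 CPM at 0.5% O2. Jun rose there by 1.98 ± 0.14 (3.96-fold, edgeR adjusted p = 6.3e-09), with all 3 libraries above all 4, and by 0.62 with library size alone. In chondrocyte cultures it was at 49.1, 46.4, 51.0 and 49.3 CPM at 21% O2 and at 72.9, 58.6 and 59.1 CPM at 0.5% O2, a rise of 0.37 ± 0.08 without overlap (edgeR adjusted p = 0.00866). That call too ended with all 8 groups in 1 fit (0.38, adjusted p = 0.294).

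In osteoblast cultures at 21% O2 Jun was at 41.1, 37.9, 40.6 and 99.3 CPM, so replicate 4 was far above the other libraries. At 0.5% O2 it was at 189, 209.7 and 199 CPM. All 3 lay above replicate 4, and the fitted difference was 1.86 ± 0.35 on the log2 scale, or 2.32 without replicate 4, as a description.

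Junb (ENSMUSG00000052837, chromosome 8, 84974484 to 84978718, - strand) encodes a Jun protein that activates less strongly than JUN and can restrain it. Scaled with TMM, Junb was highest in smooth muscle cultures at 0.5% O2, at 189, 229.8 and 204 CPM, against 40.9, 41.3, 36.3 and 40.1 CPM at 21% O2. No library overlapped, and the rise was 2.45 ± 0.09 on the log2 scale (5.47-fold, edgeR adjusted p = 2.48e-12). With library size alone in place of TMM it was 1.08, the lowest of its alternatives. Junb then averaged 107 CPM in smooth muscle cultures at 0.5% O2, below chondrocyte cultures at 21% O2 (139 CPM) and 0.5% O2 (152 CPM). Chondrocyte cultures had 159, 147, 132 and 135 CPM at 21% O2 and 134.5, 178 and 186 CPM at 0.5% O2. These overlapped, and the difference of 0.21 ± 0.11 did not pass (edgeR adjusted p = 0.238), though without replicate 1 at 0.5% O2 it did (0.34, adjusted p = 0.0194). In osteoblast cultures at 21% O2 Junb was at 36.6, 35.1, 37.3 and 75.3 CPM, the last again replicate 4, and at 0.5% O2 at 92.5, 81.0 and 58.4 CPM. The fitted difference was 0.74 ± 0.30, and 0.60 to 1.09 with 1 library left out, as a description. In proliferating cells Junb was called higher at 0.5% O2 by 0.20 ± 0.08 (edgeR adjusted p = 0.0401), but the libraries overlapped and 9 of its alternatives ended the call.

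Jund (ENSMUSG00000071076, chromosome 8, 70698949 to 70700616, + strand), the Jun gene least tied to growth signals, differed mainly by culture type. Group means were 173 and 218 CPM in proliferating, 170.2 and 204 CPM in chondrocyte, 81.9 and 74.8 CPM in osteoblast and 103 and 104 CPM in smooth muscle cultures, at 21% and 0.5% O2 in turn. Libraries at the 2 oxygen levels overlapped in every culture type. In chondrocyte cultures the difference of 0.25 ± 0.10 did not pass (edgeR adjusted p = 0.0972), though it did without 0.5% replicate 1 (0.38, adjusted p = 0.0031) and without a filter on low counts (0.26, adjusted p = 0.0387). Jund was called higher at 0.5% O2 in proliferating cells (0.39 ± 0.12, edgeR adjusted p = 0.0168), a call lost without any 1 of 3 libraries (21% replicate 4, or 0.5% replicate 1 or 2, adjusted p of 0.0538 to 0.129). That call was also lost without a filter on low counts (0.35, edgeR adjusted p = 0.112). The smooth muscle difference was 0.07 ± 0.15 (edgeR adjusted p = 0.669), and library size alone turned it to a called fall (-1.30).

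Batf3 (ENSMUSG00000026630, chromosome 1, 191097847 to 191108945, + strand), a small bZIP partner of Jun proteins best known from dendritic cells, had 773 counts in all 28 libraries together. Its group means ran from 0.19 CPM in proliferating cells at 21% O2 to 2.30 CPM in chondrocyte cultures at 0.5% O2, where the libraries had 1.93, 2.28 and 2.69 CPM. At these counts only large differences were detectable. Batf3 was called higher at 0.5% O2 in smooth muscle cultures (1.71 ± 0.58, edgeR adjusted p = 0.0155), on 1.35, 0.40 and 1.76 CPM against 0.37, 0.54, 0.23 and 0.35 CPM. The groups overlapped, and the call was lost without 0.5% replicate 3 (edgeR adjusted p = 0.0936) and with library size alone (0.569). It was also lost with replicate number as a block in the fit (edgeR adjusted p = 0.161). In chondrocyte cultures its difference of 0.75 ± 0.30 did not pass (edgeR adjusted p = 0.0973), though without 21% replicate 1 it did (0.98, adjusted p = 0.0359). The fitted oxygen difference of Batf3 in osteoblast cultures was 0.01 ± 0.49, or 0.62 without 21% replicate 4, as a description.

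Counted over the family, a gene is called below when its edgeR p-value, adjusted over all genes tested, was under 0.05. In proliferating cells 5 of the 7 members tested were called higher at 0.5% O2 (Fosl1, Fosl2, Jun, Junb and Jund) and none lower, whereas 33.1% of all genes tested were called higher, 32.3% lower and 65.4% in either direction. Batf3 was too low to be tested there. The count was 2 when all 8 groups shared 1 estimate of the spread, 3 without a filter on low counts, and 3 without 0.5% replicate 1 or 2. In chondrocyte cultures 2 of 8 members were called higher (Fosl2 and Jun), against 10.4% of all genes called higher and 22.2% in either direction, and none was called lower, against 11.8%. The count was 1 with all 8 groups in 1 fit and 4 without 0.5% replicate 1. Smooth muscle cultures had 7 of 8 members called higher and none lower, against 35.4% of all genes called higher, 40.2% lower and 75.6% in either direction. With library size alone in place of TMM, which put the median of all genes at -1.49 (-0.12 with TMM), 4 members were called higher (Fos, Fosl1, Jun and Junb) and 2 lower (Fosl2 and Jund). In osteoblast cultures no members are counted, since that contrast prompted the choice, and 27.0% of all genes were called higher, 27.3% lower and 54.3% in either direction. In either direction, the share of members called in the other 3 culture types was near the share of all genes called.

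**Figure D3:**
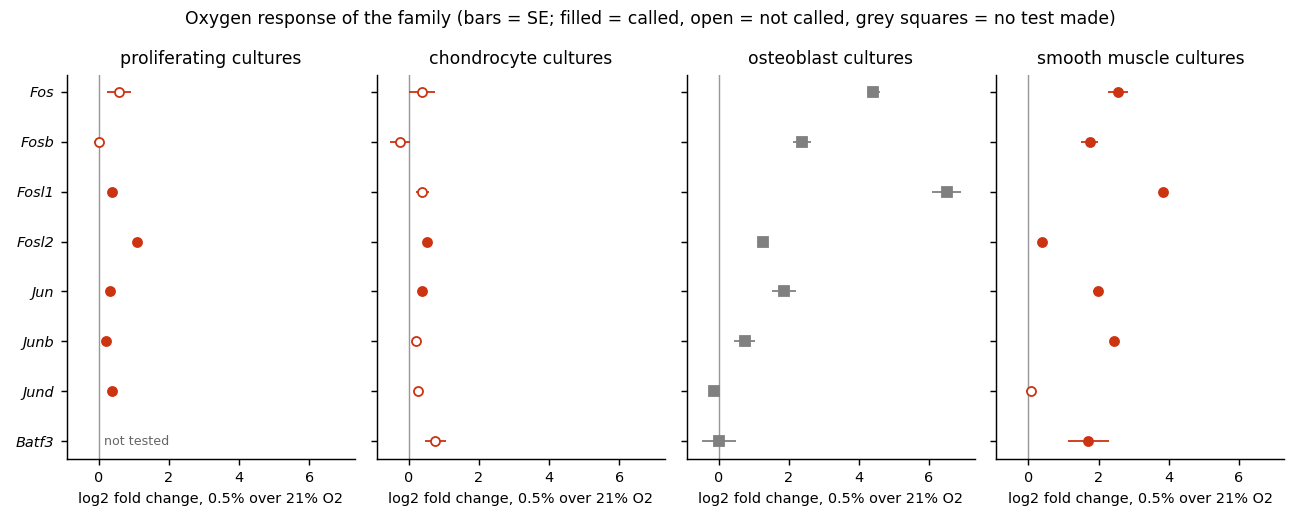
Points give each member's log2 fold change of 0.5% over 21% O2 in 4 culture types, with the SE as bars; filled points passed the test, open ones did not, and grey squares (osteoblast cultures) have no test. In chondrocyte cultures all members lie between -0.25 and 0.75, whereas in smooth muscle cultures Fosl1 reaches 3.84 and Junb 2.45, and Fosl2 (0.39) and Jund (0.07) lie near 0 and turn negative with library size alone.

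The differentiation comparisons set each culture type against proliferating cells at the same oxygen level, so the 3 at each level share the same proliferating libraries. At 21% O2 the family split. Fos rose from its low level in all 3 culture types, by 2.77 ± 0.27 in chondrocyte, 3.52 ± 0.19 in osteoblast and 2.79 ± 0.22 in smooth muscle cultures on the log2 scale (edgeR adjusted p of 1.52e-06, 1.25e-07 and 7.35e-09). Jun fell in all 3, by 2.87 ± 0.05, 2.73 ± 0.31 and 3.14 ± 0.05 (edgeR adjusted p of 1.39e-12, 2.33e-05 and 4.4e-16), and its osteoblast value was -3.23 without osteoblast replicate 4. Fosb fell by 2.74 ± 0.18, 1.60 ± 0.16 and 1.63 ± 0.17 (edgeR adjusted p of 3.69e-08, 9.22e-06 and 3.56e-07). Fosl1 fell by 3.83 ± 0.16 in chondrocyte and by 5.18 ± 0.10 in smooth muscle cultures (edgeR adjusted p of 6.13e-09 and 5.99e-15). In osteoblast cultures its fitted difference was -8.31 ± 0.35 (-9.15 without replicate 4), a description.

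Junb rose in chondrocyte cultures alone of the 3 at 21% O2, by 1.81 ± 0.09 (edgeR adjusted p = 2.17e-09), and its values were 0.16 ± 0.24 in osteoblast and -0.06 ± 0.08 in smooth muscle cultures, neither called. Without osteoblast replicate 4 the osteoblast value turned to -0.23 and was called (adjusted p = 0.0135). Jund fell by 1.03 ± 0.09 in osteoblast and by 0.70 ± 0.09 in smooth muscle cultures (edgeR adjusted p of 2.25e-06 and 1.26e-05). Its value was 0.05 ± 0.06 in chondrocyte cultures, where library size alone turned it to a called -0.30. Fosl2 changed by -0.36 ± 0.09 in smooth muscle cultures (edgeR adjusted p = 0.0016). Its values of -0.09 ± 0.09 in chondrocyte and -0.04 ± 0.11 in osteoblast cultures were not called, but the former was called with library size alone (-0.44, edgeR adjusted p = 0.000788) and without proliferating replicate 4 (-0.19, adjusted p = 0.0169). Batf3 rose by 2.94 ± 0.39 in chondrocyte and 2.92 ± 0.54 in osteoblast cultures (edgeR adjusted p of 2.04e-05 and 0.000668), the latter 2.27 without replicate 4.

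Read as counts at 21% O2, 3 members were called higher and 3 lower of 8 tested in chondrocyte cultures, where 74.9% of all genes were called (37.7% higher, 37.2% lower). Library size alone gave 3 called higher and 5 lower. In osteoblast cultures 2 were called higher and 3 lower of the 7 counted (Fosl1 left out), where 78.7% of all genes were called (40.9% higher, 37.8% lower). For smooth muscle cultures 1 was called higher and 5 lower of 7 tested, where 79.7% of all genes were called (40.8% higher, 38.9% lower). The shares of members called were close to these backgrounds.

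At 0.5% O2 Fos rose by 2.57 ± 0.41 in chondrocyte, 7.35 ± 0.21 in osteoblast (163-fold) and 4.84 ± 0.42 in smooth muscle cultures on the log2 scale (edgeR adjusted p of 0.000192, 2.25e-12 and 1.03e-06). Jun fell by 2.86 ± 0.08, 1.20 ± 0.07 and 1.42 ± 0.16 (edgeR adjusted p of 6.22e-12, 2.19e-10 and 1.1e-05). Fosl1 fell by 3.82 ± 0.09 in chondrocyte and 1.64 ± 0.08 in smooth muscle cultures (edgeR adjusted p of 7.62e-13 and 7.94e-09), and its osteoblast value was -2.17 ± 0.10, a description. Junb rose in all 3 culture types, by 1.80 ± 0.12, 0.70 ± 0.14 and 2.25 ± 0.10 (edgeR adjusted p of 1.36e-06, 0.000428 and 2.9e-09). Library size alone moved the smooth muscle values to 3.57 for Fos, -2.70 for Jun, -2.92 for Fosl1 and 0.97 for Junb, with the same calls.

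Fosb fell by 3.01 ± 0.21 in chondrocyte cultures at 0.5% O2 (edgeR adjusted p = 2.33e-08). It rose by 0.78 ± 0.25 in osteoblast cultures (edgeR adjusted p = 0.0159), a call lost without proliferating replicate 2 at 0.5% O2 (adjusted p = 0.0613) and with library size alone (adjusted p = 0.0637). Its smooth muscle value of 0.17 ± 0.20 was not called, and library size alone turned it to a called -1.10. Fosl2 fell by 0.68 ± 0.07 in chondrocyte and 1.00 ± 0.07 in smooth muscle cultures (edgeR adjusted p of 7.3e-07 and 1.53e-07), and Jund fell by 1.55 ± 0.12 in osteoblast and 0.95 ± 0.17 in smooth muscle cultures (edgeR adjusted p of 3.84e-08 and 0.00043). The smooth muscle values were -2.28 for Fosl2 and -2.23 for Jund with library size alone. In osteoblast cultures Fosl2 was at 0.12 ± 0.07, not called, and was called without osteoblast replicate 3 (0.15, edgeR adjusted p = 0.0257). Batf3 rose by 3.47 ± 0.48 in chondrocyte and 2.73 ± 0.52 in osteoblast cultures (edgeR adjusted p of 2.45e-05 and 0.000237). At 0.5% O2 the calls in chondrocyte cultures were 3 higher and 4 lower of 8 members, where 69.5% of all genes were called (34.9% higher, 34.6% lower). Osteoblast cultures had 4 higher and 2 lower of 7 (Fosl1 left out), where 71.3% of all genes were called (36.2% higher, 35.1% lower). Smooth muscle cultures had 2 higher and 4 lower of 7, where 70.0% of all genes were called (33.8% higher, 36.2% lower).

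**Figure D4:**
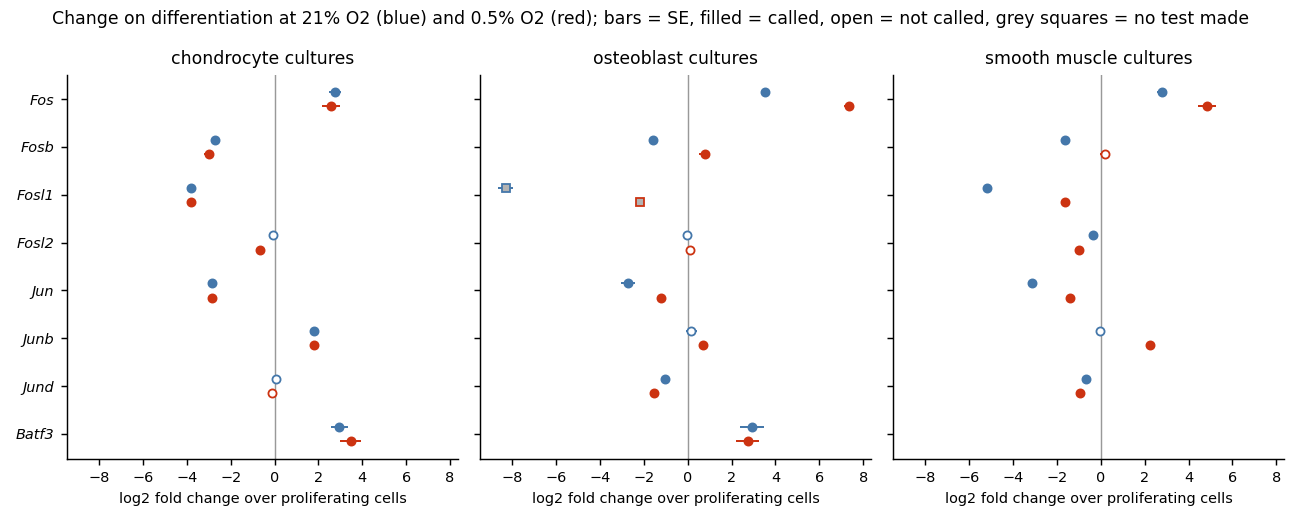
Points give each member's log2 fold change over proliferating cells in 3 culture types, blue at 21% O2 and red at 0.5% O2, with the SE as bars; filled points passed the test and grey squares (Fosl1 in osteoblast cultures) have no test. In chondrocyte cultures Fosl1 is at -3.83 and -3.82 and Fosl2 at -0.09 and -0.68, whereas in smooth muscle cultures Junb is at -0.06 and 2.25 and Fosl1 at -5.18 and -1.64.

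Whether a differentiation change depended on oxygen was tested as an interaction, the change at 0.5% O2 minus the change at 21% O2. For the chondrocyte change 1 of 8 members passed, Fosl2 (-0.56 ± 0.13 on the log2 scale, edgeR adjusted p = 0.00208), where 43.5% of all genes passed (21.6% positive, 21.9% negative). The values of Fosl1 (0.04 ± 0.19), Jun (0.05 ± 0.09) and Junb (0.02 ± 0.15) did not pass, which does not show that the changes were equal. For the smooth muscle change 6 of 8 passed, where 70.4% of all genes did (34.9% positive, 35.5% negative). Fosl1 (3.52 ± 0.13, edgeR adjusted p = 6.44e-16), Junb (2.29 ± 0.12, 3.54e-13), Fos (2.03 ± 0.46, 0.000437), Fosb (1.78 ± 0.28, 6.12e-06) and Jun (1.69 ± 0.16, 2.3e-08) were positive and Fosl2 was negative (-0.66 ± 0.12, 5.74e-05). With library size alone, Fos (0.70), Fosb (0.45) and Jun (0.37) kept their sign but no longer passed (adjusted p of 0.182, 0.146 and 0.0773), while Fosl1 and Junb passed in every alternative run. Library size alone put Fosl1 at 2.19, Junb at 0.95 and Fosl2 at -2.001. Jund, at -0.27 ± 0.22 and not called, was called with library size alone (-1.61, adjusted p = 4.59e-06) and without a filter (-0.35, adjusted p = 0.00629). The counts with library size alone were 2 positive and 2 negative, against 5 and 1. For the osteoblast change, with no test and no count of members, the values were 6.17 for Fosl1, 3.89 for Fos, 2.43 for Fosb, 1.57 for Jun and -0.48 for Jund. The other members were at 0.58 ± 0.35 (Junb), 0.21 ± 0.15 (Fosl2) and -0.14 ± 0.83 (Batf3). Without osteoblast replicate 4 at 21% O2, Fosl1 was at 6.98, Jun at 2.04 and Batf3 at 0.48. Of all genes 54.2% passed (28.9% positive, 25.3% negative).

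Genes whose level followed a member most closely over the 8 group means were sought among 11114 genes by the root mean square (RMS) difference of centred log2 levels, as a description of 8 points with no test. Closest to Fosl1 was Etv4, an ETS family transcription factor of growth factor signalling (RMS 0.836), with 115 CPM in proliferating cells, 0.31 CPM in osteoblast cultures at 21% and 9.00 CPM at 0.5% O2. Ngef (0.911), Ptprn (0.945), Cavin4 (1.042) and Ube2c, a ubiquitin-conjugating enzyme of mitosis (1.099), followed. Each differed from Fosl1 by close to 1 on the log2 scale per group, so none was a close match. Fosl2 lay nearer to its closest gene, Jcad (0.160), as did Jund to Dusp3 (0.147), and Junb to Plod3 (0.223), a collagen-modifying enzyme. Fos was closest to Ace (0.551), which encodes angiotensin-converting enzyme and averaged 252 CPM in osteoblast cultures at 0.5% O2, against 20.8 CPM at 21% O2. The nearest genes of Fosb, Jun and Batf3 were Rab20 (0.479), Uaca (0.436) and Ndel1 (0.184). Of the 7 members besides Fosl1, 5 had the same nearest gene with a pseudocount of 0.1 in place of 0.5 CPM and with library size alone. The exceptions were Jun (P2ry2 in both) and Batf3 (Kcnn1 and Tgoln1), whose levels lie around the pseudocount. Among the members themselves, Fos and Fosl1 were the least alike (3.484).

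Other genes of the AP-1 system were taken from lists of textbook knowledge, chosen with earlier results of these data known. Of 27 AP-1 and FRA-1 target genes, 19 of the 25 tested rose and 4 fell at 0.5% O2 in smooth muscle cultures (median log2 fold change 1.77, against -0.12 over all genes, of which 35.4% rose and 40.2% fell). With library size alone 12 rose and 11 fell (median 0.40, against -1.49 over all genes). Plaur, the urokinase receptor, rose from 4.49 ± 0.73 to 43.6 ± 11.5 CPM (SD), Timp1, a protease inhibitor, from 25.2 ± 3.8 to 213 ± 29 CPM, and Il1rl1, a classic FOS-regulated receptor, from 52.4 ± 11.5 to 381 ± 13 CPM (edgeR adjusted p of 2.46e-10, 5.81e-12 and 3.32e-11). The high-mobility gene Hmga2 rose by 1.77 ± 0.08 and the growth factor Areg by 3.59 ± 0.35 (edgeR adjusted p of 3.04e-11 and 2.55e-07). Their log2 fold changes with library size alone were 1.97 for Plaur, 1.77 for Timp1, 1.55 for Il1rl1, 0.40 for Hmga2 and 2.22 for Areg, all still called. Ccnd1, a G1 cyclin, rose by 0.96 ± 0.08 (edgeR adjusted p = 4.67e-08), and library size alone turned it to -0.41. Mmp13, a collagenase, was lower, at a log2 fold change of -4.74 ± 0.70 (edgeR adjusted p = 0.000108), from 13.2 to 0.48 CPM, at -5.88 without 0.5% replicate 3 and at -6.09 with library size alone, and limma-voom ended the call (-4.77, adjusted p = 0.165). Plau (0.15 ± 0.11) and Mmp3 (0.39 ± 0.38) were not called, and library size alone turned them to -1.21 and -0.98.

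In osteoblast cultures the 21 target genes with enough counts had a median log2 fold change of 2.21, against -0.03 over all genes, which is a description because that contrast prompted the choice of the family. Mmp13 there averaged 9.51 ± 0.49 CPM at 21% O2 and 97.7 ± 9.2 CPM at 0.5% O2, Plau 11.7 ± 4.2 and 70.5 ± 6.5, Plaur 5.04 ± 3.18 and 31.7 ± 3.7, and Hmga2 60.6 ± 12.6 and 299 ± 18 CPM (SD). Mki67, a proliferation marker named after its values were seen, averaged 9.31 ± 2.87 CPM at 21% O2 and 82.2 ± 14.3 CPM at 0.5% O2 in osteoblast cultures, and its part in the difference was not tested. In proliferating cells 12 of 26 targets rose and 8 fell (median 0.27), where 33.1% of all genes rose and 32.3% fell, among them Plau (1.05 ± 0.06, higher) and Il1rl1 (-0.80 ± 0.08, lower), with edgeR adjusted p of 5.86e-09 and 3.9e-06. In chondrocyte cultures 7 of 22 rose and 3 fell (median 0.15), where 10.4% of all genes rose and 11.8% fell. On differentiation at 21% O2, 8 targets rose and 16 fell of 26 in chondrocyte cultures (37.2% of all genes fell), 5 rose and 18 fell of 25 in osteoblast cultures (37.8%) and 5 rose and 21 fell of 26 in smooth muscle cultures (38.9%). At 0.5% O2, of 26 each, 7 rose and 18 fell in chondrocyte (34.6% of all genes fell), 6 and 18 in osteoblast (35.1%) and 5 and 17 in smooth muscle cultures (36.2%). The last were 0 and 23 with library size alone. Il1rl1 went from 799.8 CPM in proliferating cells to 3.01, 0.87 and 52.4 CPM in the 3 culture types at 21% O2.

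Among 21 other bZIP genes, 12 of 20 tested rose and 7 fell at 0.5% O2 in smooth muscle cultures (median 0.42), where 35.4% of all genes rose and 40.2% fell, and with library size alone 5 rose and 13 fell (median -0.95). Maff, a small MAF protein that pairs with other bZIP factors, was higher at 0.5% O2 in all 4 culture types. It averaged 31.6 and 114 CPM in proliferating, 17.7 and 44.8 CPM in chondrocyte, 12.4 and 162 CPM in osteoblast and 7.51 and 282 CPM in smooth muscle cultures. The rise was 1.91 ± 0.05, 1.34 ± 0.26 and 5.29 ± 0.13 in proliferating, chondrocyte and smooth muscle cultures (edgeR adjusted p of 1.52e-12, 0.00946 and 2.11e-14). Atf3, a stress-induced partner of Jun, rose by 1.18 ± 0.17 in proliferating cells and 3.79 ± 0.25 in smooth muscle cultures (edgeR adjusted p of 4.55e-05 and 3.2e-09). In osteoblast cultures Atf3 averaged 2.36 ± 0.82 and 29.9 ± 9.4 CPM at 21% and 0.5% O2. Jdp2, a repressor that pairs with Jun, fell by 1.95 ± 0.17 in smooth muscle cultures (edgeR adjusted p = 4.55e-08), to 12.0 from 48.9 CPM. In proliferating cells Jdp2 rose by 0.24 ± 0.06 (edgeR adjusted p = 0.00269), a call that ended with all 8 groups in 1 fit (0.18, adjusted p = 0.286). Nfil3 rose in proliferating (1.22 ± 0.06), chondrocyte (0.84 ± 0.17) and smooth muscle cultures (0.53 ± 0.11; edgeR adjusted p of 6.2e-10, 0.0103 and 0.000637), the last turned to -0.84 by library size alone and the chondrocyte call ended without a filter (adjusted p = 0.0564). Nfe2l2, the oxidative stress factor, was at 0.22 ± 0.09 in smooth muscle cultures (edgeR adjusted p = 0.0361), and library size alone turned it to -1.15. Its call also ended in each of the 4 fits without 1 library at 21% O2 (adjusted p of 0.0698 to 0.114). In smooth muscle cultures library size alone put Maff at 3.92, Atf3 at 2.43 and Jdp2 at -3.31. Batf averaged under 1 CPM in every group. The list counts were 10 higher and 4 lower of 18 in proliferating cells (33.1% and 32.3% of all genes) and 5 and 0 of 19 in chondrocyte cultures (10.4% and 11.8%), and the osteoblast median was 0.34.

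The 26 immediate early genes outside the family were mixed. In smooth muscle cultures at 0.5% O2, 12 rose and 8 fell (median 0.53), where 35.4% of all genes rose and 40.2% fell, and with library size alone 7 rose and 15 fell (median -0.83). In proliferating cells 10 of 24 rose and 6 fell (median 0.22), where 33.1% of all genes rose and 32.3% fell. In chondrocyte cultures 5 of 26 rose and 4 fell (median 0.16), where 10.4% of all genes rose and 11.8% fell. The osteoblast median was 0.87, as a description. Egr1, a serum-responsive zinc finger factor, fell at 0.5% O2 in proliferating cells (-0.72 ± 0.08) and chondrocyte cultures (-2.32 ± 0.11; edgeR adjusted p of 2.23e-06 and 3.17e-07), in both of which Fos was not called. Egr1 in smooth muscle cultures rose by 1.92 ± 0.53 (edgeR adjusted p = 0.0182), by 1.08 without 0.5% replicate 1, and by 0.57 with library size alone, which ended the call (adjusted p = 0.351). With all 8 groups in 1 fit the proliferating call of Egr1 ended (-0.78, adjusted p = 0.116). Ier3, a stress-induced survival gene, rose from 43.2 ± 6.3 to 419.9 ± 10.5 CPM (SD) in proliferating cells (edgeR adjusted p = 1.02e-09), and also in chondrocyte (1.64 ± 0.08) and smooth muscle cultures (2.66 ± 0.09; edgeR adjusted p of 3.17e-07 and 8.15e-13). Dusp6, a feedback phosphatase of ERK signalling, rose by 0.57 ± 0.04 in proliferating cells and 1.91 ± 0.13 in smooth muscle cultures (edgeR adjusted p of 6.76e-08 and 3.26e-09) and was at 4.24 and 29.1 CPM in osteoblast cultures. Klf4 (0.35 ± 0.15), Ier2 (0.19 ± 0.15) and Ccn1 (0.58 ± 0.39) were not called in smooth muscle cultures, and library size alone turned Klf4 to -1.01 and Ier2 to -1.18. Klf4 (0.52) and Ccn1 (0.90) were called without 0.5% replicate 2 (edgeR adjusted p of 0.000669 and 0.00103). Myc, a growth-promoting factor, rose in smooth muscle cultures by 2.74 ± 0.20 (edgeR adjusted p = 5.34e-08). Smooth muscle values with library size alone were 1.29 for Ier3, 0.55 for Dusp6 and 1.37 for Myc, all still called.

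Of the 26 upstream MAP kinases and serum response regulators, 9 rose and 8 fell in proliferating cells at 0.5% O2 (median 0.05), where 65.4% of all genes were called. In chondrocyte cultures 5 rose and 3 fell, where 22.2% of all genes were called. In smooth muscle cultures 8 rose and 14 fell (median -0.46), where 75.6% of all genes were called, and with library size alone 1 rose and 22 fell. Map3k1, a kinase upstream of JNK, rose in proliferating cells (1.83 ± 0.09) and smooth muscle cultures (2.57 ± 0.09; edgeR adjusted p of 1.36e-09 and 2.39e-12). Mapk3, which encodes ERK1, rose by 0.67 ± 0.06 and 1.53 ± 0.10 in the same cultures (edgeR adjusted p of 4e-07 and 1.55e-09). Library size alone put the smooth muscle values at 1.20 for Map3k1 and at 0.16 for Mapk3, whose call ended (adjusted p = 0.119). Srf, the factor that binds CArG boxes, fell by 1.04 ± 0.10 in proliferating cells and 0.34 ± 0.08 in smooth muscle cultures (edgeR adjusted p of 1.76e-06 and 0.00187). In osteoblast cultures Srf went the other way, at 60.1 ± 3.9 CPM at 21% and 101.2 ± 5.5 CPM at 0.5% O2 (SD), as a description. Fbxw7, the ubiquitin ligase subunit that marks JUN for degradation, fell by 1.16 ± 0.18 in smooth muscle cultures (edgeR adjusted p = 4.19e-05). Elk3, an ETS partner of SRF, was not called in any of the 3 oxygen comparisons tested with TMM. The smooth muscle values with library size alone were -1.71 for Srf, -2.53 for Fbxw7 and a called -1.44 for Elk3 (edgeR adjusted p = 4.97e-10), which was also called in proliferating cells (-0.11, adjusted p = 0.047).

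**Figure D5:**
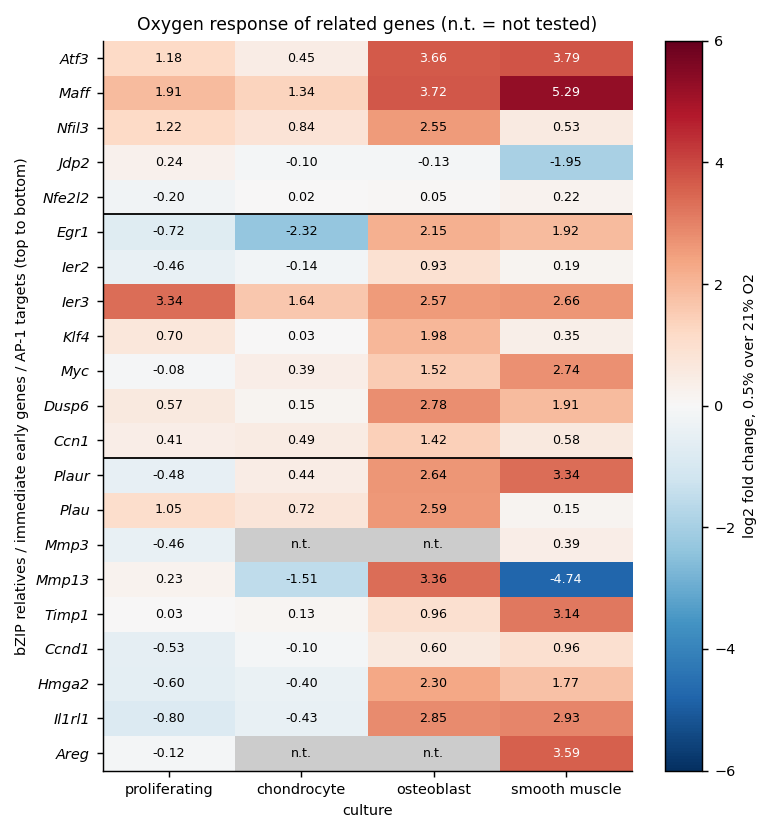
Cells give the log2 fold change of 0.5% over 21% O2 for named bZIP relatives (top), immediate early genes (middle) and AP-1 targets (bottom) in 4 culture types, red for higher and blue for lower at 0.5% O2; n.t. marks genes too low to test. Maff is positive in all 4 columns (1.34 to 5.29), Egr1 is negative in proliferating and chondrocyte cultures and positive in the others, and Mmp13 is at 3.36 in osteoblast and -4.74 in smooth muscle cultures.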

How the data were processed

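PolyA RNA of 28 libraries was sequenced from a stranded kit, per the labels' protocols. The values are raw read counts per gene, as the authors deposited them; the submitters' processing notes name HISAT2 2.0.5, StringTie 1.3.3b, featureCounts 1.5.0-p3 and mm10. The annotation and strand setting of the counting are not given in the sources used here, so reads from overlapping genes on opposite strands could not be told apart. The 10 deposited pairwise tables, with 70 per-library columns, were not used. Of 54429 identifiers, 54314 matched a symbol. Gene positions and exon lengths are from the GENCODE annotation of GRCm38.

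Levels are counts per 1e+06 of the library total scaled by TMM over all 28 libraries. Each comparison was fitted on its own groups with edgeR 4.0.16 (robust quasi-likelihood test, two-sided; limma 3.58.1, R 4.3.3), keeping genes with filterByExpr (minimum count 10, minimum total 15), and p-values were adjusted by Benjamini-Hochberg over all genes tested, with a threshold of 0.05. The interaction fits used the 4 groups concerned. The procedure was tested on simulated data. No 2 libraries agreed within sampling noise. Alternatives were other scaling (DESeq2-type size factors, library size alone, TMM without mitochondrial genes), other filters, DESeq2 1.42.0, limma-voom, all 8 groups in 1 fit, a replicate block and leaving out each library.

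The members, the gene lists and the tests were chosen with earlier results of these data known. The named genes were all 8 members, a set of list genes named whatever they did, the 5 genes nearest to Fosl1 and the 1 nearest to each other member in pattern, among genes with at least 5 CPM in a group, with a pseudocount of 0.5 CPM.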

Additional observations from a re-analysis of the deposited data

Results flagged for a closer look

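In 4 of 32 sets of 4 libraries at 21% O2 (8 members in 4 culture types), 1 library lay far from its companions by Dixon's criterion, where chance gives about 1 in 20. These were Jun at 99.3 CPM and Junb at 75.3 CPM, both in osteoblast replicate 4, Fosl2 at 215 CPM in proliferating replicate 4 and Jund at 182 CPM in chondrocyte replicate 4. In 7 cases the change on differentiation differed between oxygen levels by the interaction test. Fosl2 differed for the chondrocyte change (-0.56 on the log2 scale). For the smooth muscle change Fosl1 (3.52), Junb (2.29), Fos (2.03), Fosb (1.78) and Jun (1.69) were positive and Fosl2 (-0.66) was negative. The smooth muscle values rest on the 3 libraries at 0.5% O2 that stood apart in mitochondrial rRNA. Leaving out mitochondrial genes left 11292 genes called for oxygen in smooth muscle cultures (11271 with them) and 11004 for the interaction (11003). Beyond that, the part of what set these libraries apart was not tested.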

How the results depend on the processing

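Of 1773 alternative values for the members, 1715 kept their side of the threshold or, where no test is given, moved by at most 1 SE. Of these, 47 in 14 comparisons of a member changed sign without being called, from values of at most 0.38 in size. The number of members called in proliferating cells at 0.5% against 21% O2 (5) was 3 without a filter and 2 with all 8 groups in 1 fit, and 3 to 5 with 1 library left out. In chondrocyte cultures (2) it was 1 with all 8 groups in 1 fit and 2 to 4 with 1 library left out. The cause was not tested. In the other 9 comparisons with a count the count stayed within 1.5 times.

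Among members and named list genes 26 values changed sign and were called before or after, 25 of them with library size alone. In smooth muscle cultures at 0.5% against 21% O2 these were Fosl2 (-0.98), Jund (-1.30), Nfe2l2 (-1.15), Nfil3 (-0.84), Ier2 (-1.18), Klf4 (-1.01), Plau (-1.21), Mmp3 (-0.98) and Ccnd1 (-0.41). Against proliferating cells they were Jund (-0.30), Mapk3 (-0.26), Ier2 (-0.31) and Timp1 (-0.092) in chondrocyte cultures at 21% O2, Srf (-0.045) in chondrocyte cultures at 0.5% O2, and Fosb (-1.10), Nfe2l2 (-1.15), Srf (-0.66), Mapk3 (-0.16) and Timp1 (-0.66) in smooth muscle cultures at 0.5% O2. For the oxygen dependence of the smooth muscle change they were Nfe2l2 (-0.87), Srf (-0.60), Elk3 (-1.33), Mapk3 (-0.44), Map3k1 (-0.56) and Ier2 (-0.64). The other was Junb in osteoblast against proliferating cells at 21% O2 (-0.23 to 0.26 with 1 library left out, the lowest without osteoblast replicate 4). The cause of these sign changes was not tested.

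Library size alone lowered the share of called genes that were higher from 46.8% to 15.6% in smooth muscle cultures at 0.5% against 21% O2, from 48.3% to 15% for smooth muscle against proliferating cells at 0.5% O2 and from 49.6% to 16.6% for the smooth muscle interaction. The shares went from 46.9% to 31.8% and from 49.6% to 36.9% for oxygen in chondrocyte and osteoblast cultures. For chondrocyte against proliferating cells they went from 50.3% to 34.7% at 21% O2 and from 50.2% to 31.8% at 0.5% O2, and for osteoblast cultures at 0.5% O2 from 50.8% to 38.2%.

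Replicate numbers did not pair the libraries. Correlations of same-numbered libraries' deviations ran from -0.125 to 0.107, and in 0 of 10 comparisons were all over 0.1. With the replicate block the members called were 5, 3 and 6 for oxygen in proliferating, chondrocyte and smooth muscle cultures (5, 2 and 7 without). Fosl1 was then called in chondrocyte cultures (0.51, edgeR adjusted p = 0.0365) and Batf3 no longer in smooth muscle cultures (1.60, edgeR adjusted p = 0.161). Depth limits Batf3 (1 to 86 counts a library), Fos in proliferating cells (16 to 45) and Fosl1 in osteoblast cultures at 21% O2 (8 to 48).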
